A study of Mus musculus with 12 samples.

Results

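Apolipoprotein E (Apoe) and 9 other genes that move cholesterol, fatty acids and lipoprotein lipid through cells (Abca1, Abcg1, Lpl, Lrp1, Npc1, Npc2, Lipa, Pltp and Fabp5) were followed through hematopoietic stem cells (HSCs) and macrophages sorted from mouse fetal liver at E14.5. The 10 genes were taken by symbol from each count table. They are 10 of 56980 gene identifiers in the macrophage table and 10 of 32285 in the HSC table, and all 10 passed the filter on low counts in both. The list was chosen by the measured Cre difference, Apoe being lower in Cre positive macrophages and not in HSCs. Differences between Cre positive and Cre negative libraries are therefore given as description, with no p for any of the 10 genes, and counts of calls among them are printed beside those of all genes without being read as results.

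Embryos of all 4 groups carried floxed Jag1 (Jag1 f/f), the gene of the Notch ligand Jagged1. Cre negative embryos lacked Vav-Cre and Cre positive ones carried it, and the genotype labels of the HSC libraries call these WT and Mutant. The strain is labelled C57BL/6 for HSCs and is not labelled for macrophages. The Vav promoter drives this transgene in blood cells, and Vav-Cre lines are also known to recombine in part of the endothelium. HSCs were sorted as DAPI-negative CD45+ Lin- cKit+ Sca1+ CD48- CD150+ cells, 2000 per library, and macrophages as CD169+ cells, 1000 to 3000 per library. Each sort held 3 libraries of either genotype, numbered here as in their labels. Separate embryos are not stated, so p-values measure only the spread between these libraries, which may be technical.

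Macrophages take up lipoproteins, red cell nuclei and dying cells, and must store, burn or export the cholesterol they receive. Endocytosed cholesteryl esters are split in the lysosome by the acid lipase Lipa, free cholesterol leaves the lysosome through Npc2 and Npc1, and Abca1 and Abcg1 carry it out of the cell to lipid acceptors such as Apoe. Lpl releases fatty acids from triglyceride-rich lipoproteins, Lrp1 is an endocytic receptor for Apoe-bearing remnants and for protease complexes, Pltp moves phospholipid between lipoproteins, and Fabp5 carries fatty acids inside the cell. Apoe, Abca1, Abcg1, Lpl and Pltp are known targets of the oxysterol-sensing LXR nuclear receptors. In liver, hepatocytes and their precursors are a further main source of Apoe.

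Depth differed by genotype in the macrophage sort, with 17230019 to 24658205 counted reads in Cre negative and 2602934 to 5366990 in Cre positive libraries, against 51982064 to 77463770 in HSCs. A level of 3 reads corresponds to 0.0386 to 0.0561 CPM (counts per 1000000 reads of TMM-scaled library size) in HSC libraries, 0.138 to 0.174 CPM in Cre negative and 0.522 to 1.08 CPM in Cre positive macrophages, counting error alone. Jag1, the deleted gene, measured 52.6, 21.1 and 26.3 CPM in Cre negative and 0, 10.6 and 6.79 CPM in Cre positive macrophages. The Cre positive values rest on 0, 57 and 39 reads. Jag1 lay lower without overlap, as did 11.8% of all genes tested, and it was not called in edgeR (log2 fold change -2.51, SE 1.42). In HSCs it measured 6.53, 6.87 and 1.16 CPM in Cre negative and 10.5, 0 and 19.5 CPM in the other group. These groups overlapped (log2 fold change 1.04, SE 1.99), so the HSC counts neither show the deletion nor exclude it. The libraries of that other group are therefore called "labelled Cre positive". Both sorts held RNA of other cells. The 18 macrophage markers summed to 2636, 7009 and 6207 CPM in Cre negative and 2815, 3091 and 4275 CPM in Cre positive macrophage libraries, and Siglec1, the gene of CD169 itself, ranged from 16.2 to 117 CPM. The 10 sinusoidal endothelial markers summed to 7762 to 14789 CPM in the same libraries. Cre negative macrophage replicate 1 stood apart, with 3781 CPM of 12 hepatoblast markers where the other 5 libraries held 416 to 709 CPM.

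Apoe (ENSMUSG00000002985, chromosome 7, 19696109 to 19699188, minus strand of GRCm38, 2138 exonic bases) was the most abundant of the 10 genes per kilobase of exon. In macrophages it measured 3042, 5086 and 5809 CPM in Cre negative replicates 1 to 3 and 2312, 1609 and 2458 CPM in Cre positive replicates 1 to 3. Each Cre positive library lay below each Cre negative one. The means were 4646 ± 1435 and 2126 ± 454 CPM (SD, n = 3 each), so that the Cre positive mean was 45.8% of the Cre negative one, and the log2 fold change was -1.13 (SE 0.28). In HSCs Apoe measured 5774, 4299 and 3759 CPM in Cre negative and 3911, 3706 and 5107 CPM in libraries labelled Cre positive. These groups overlapped, with means of 4611 ± 1043 and 4241 ± 756 CPM (SD, n = 3 each) and a log2 fold change of -0.12 (SE 0.21), which became 0.07 without Cre negative replicate 1. These values chose the gene and are not evidence for it.

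Marker levels differed between the macrophage libraries too. Of the 18 macrophage markers 17 had the lower mean in Cre positive libraries, and of the 12 hepatoblast markers 11 did. The sums of both lists overlapped between the groups. Hepatoblast sums were 3781, 552 and 583 CPM in Cre negative and 709, 416 and 687 CPM in Cre positive replicates 1 to 3. The highest hepatoblast level lay in replicate 1 of the Cre negative group, and that library had the lowest Apoe level of its group and the lowest macrophage marker sum of all 6. Without it the Apoe log2 fold change was -1.35. The 9 stellate and mesenchymal markers gave sums between 272 and 1716 CPM in Cre negative libraries and between 87.7 and 175 CPM in Cre positive ones, without overlap, and 9 of 9 had the lower mean. Endothelial markers went the other way, 9 of 10 having the higher mean in Cre positive libraries, but their sums overlapped. These were 14037, 8080 and 7762 CPM in Cre negative and 11492, 14789 and 10600 CPM in Cre positive replicates 1 to 3. Of the macrophage markers, Marco was at 0 in Cre negative replicate 1 and Itgam in Cre positive replicates 1 and 2, while the hepatoblast marker Serpina1a and the mesenchymal marker Pdgfrb were at 0 in all 3 Cre positive libraries. The part of these cells in the Apoe difference was not tested, and in bulk samples fewer cells of a type and less RNA per cell cannot be told apart. When all 6 libraries were thinned to the depth of the shallowest, the log2 fold change was -0.98, and on unscaled library totals it was -0.90.

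**Figure D1:**
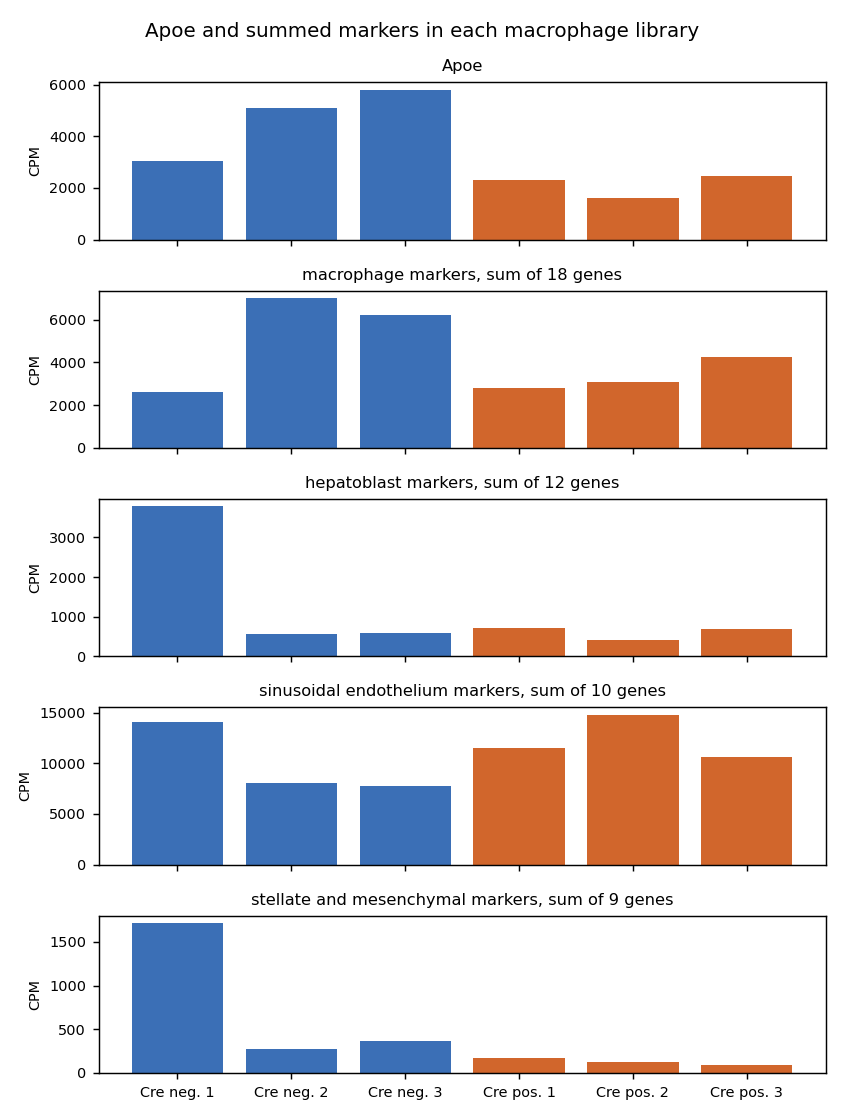
Apoe and the summed CPM of 4 marker lists in each macrophage library, as bars from 0 (blue, Cre negative; orange, Cre positive). Apoe is lowest in the 3 Cre positive libraries (1609 to 2458 CPM), macrophage markers are lowest in Cre negative replicate 1 (2636 CPM), and hepatoblast markers are highest there (3781 CPM).

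The other members were read gene by gene in macrophages, beginning with the cholesterol exporters. Abca1, the transporter that loads cholesterol and phospholipid onto lipid-poor apolipoproteins, measured 259, 841 and 908 CPM in Cre negative and 232, 375 and 455 CPM in Cre positive libraries. Cre negative replicate 1 fell among the Cre positive values, so the groups overlapped (log2 fold change -0.92, SE 0.41). Abcg1, which exports cholesterol to lipidated particles, measured 156, 259.7 and 184 CPM in Cre negative and 146, 189 and 73.1 CPM in Cre positive libraries, again with overlap (-0.56, SE 0.42). The phospholipid transfer protein gene Pltp was present in some libraries and nearly absent in others, at 0, 40.8 and 47.3 CPM in Cre negative and 0, 0.186 and 19.1 CPM in Cre positive libraries. Of the exonic length of Pltp, 19.3% is shared with Ctsa, the neighboring lysosomal gene, and reads there cannot be assigned without strand. The zeros have floors of 0.174 CPM in the Cre negative and 1.08 CPM in the Cre positive library.

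Among the genes of lipid entry, Lpl, the secreted lipase, measured 138, 545 and 427 CPM in Cre negative and 117, 76.2 and 299 CPM in Cre positive libraries (log2 fold change -1.17, SE 0.54). The groups overlapped through Cre negative replicate 1 and Cre positive replicate 3. Lrp1, the remnant receptor, measured 361, 1463 and 1300.1 CPM and 435, 151 and 1225 CPM in the same order, a span of nearly the whole range within each genotype (-0.79, SE 0.82). Fabp5, the cytosolic fatty acid carrier (chromosome 3, 10012548 to 10016607, plus strand of GRCm38), had the narrowest spread within groups. It measured 849.7, 1060.4 and 1093 CPM in Cre negative and 662, 766 and 693 CPM in Cre positive libraries, without overlap, and its Cre positive mean was 70.7% of the Cre negative one (-0.50, SE 0.27). Fabp5 is known to have processed pseudogenes, and how the counting treated reads shared with them was not tested.

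The lysosomal genes showed little order by genotype. Lipa measured 77.8, 188 and 221 CPM in Cre negative and 140.0, 92.8 and 159.6 CPM in Cre positive libraries (-0.31, SE 0.45). Npc1, the membrane protein of cholesterol egress, measured 34.6, 62.4 and 68.3 CPM and then 32.4, 20.6 and 96.1 CPM (-0.15, SE 0.69). Npc2, its soluble partner, measured 71.0, 75.7 and 105 CPM in Cre negative and 2.52, 105 and 169.8 CPM in Cre positive libraries (0.14, SE 0.96). The value of 2.52 CPM rests on 7 reads in the shallowest library, so that Cre positive libraries hold both the lowest and the highest Npc2 level. Cre positive replicate 3 weighed on several of these values. Without it the log2 fold change was -1.97 for Lpl, -1.86 for Lrp1, -1.10 for Npc1 and -0.71 for Npc2, with the median of all genes at -0.43, and Pltp kept 1 read in the Cre positive group. Of all 10 genes, 9 had the lower mean in Cre positive macrophages, and Npc1 turned to the higher mean on library totals and with DESeq2 size factors. Over all 17806 genes tested 56.1% had a log2 fold change below 0 and the median was -0.16, which moved to 0.05 on library totals.

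**Figure D2:**
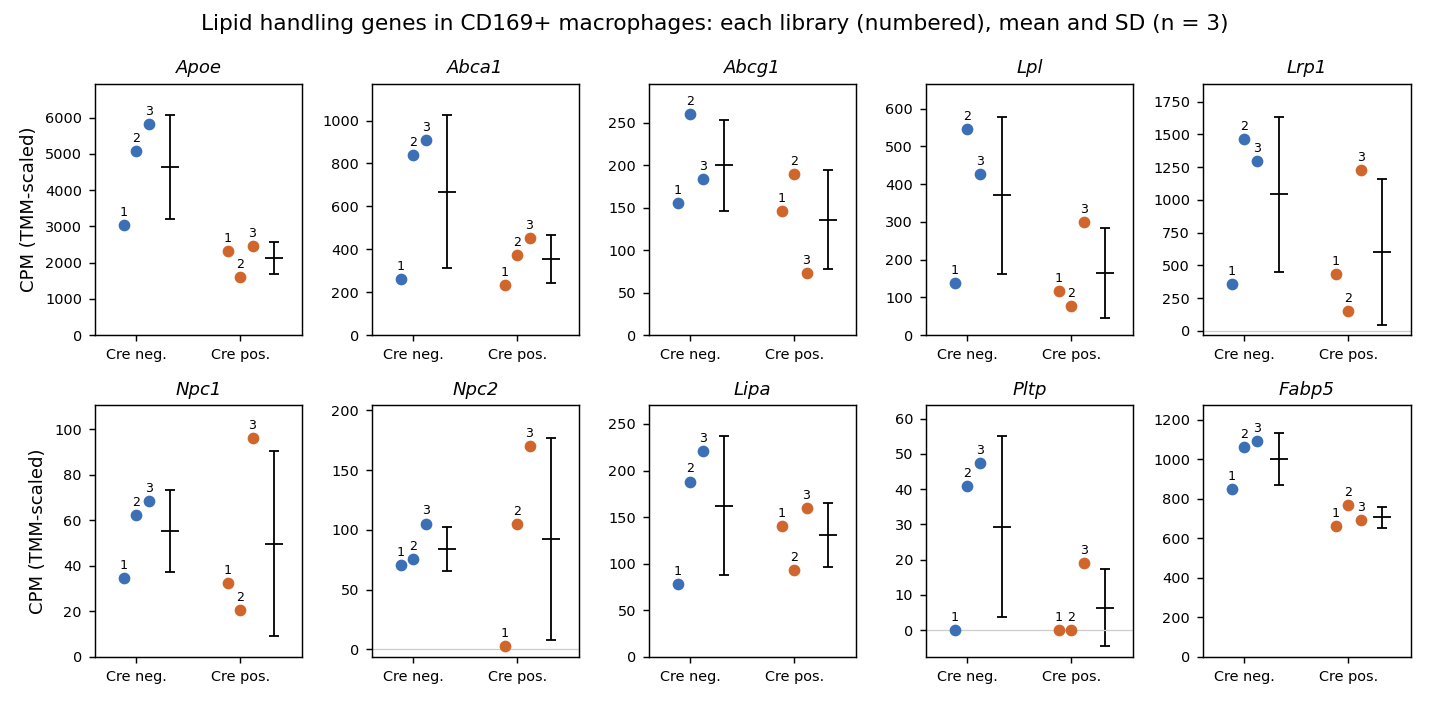
CPM of each of the 10 genes in the 6 macrophage libraries, numbered by replicate (blue, Cre negative; orange, Cre positive), with the mean and SD of 3 libraries in black. Apoe and Fabp5 separate the groups, while Lrp1, Npc1 and Pltp are high in Cre positive replicate 3 and low in Cre positive replicates 1 and 2.

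Apoe and Fabp5 were the 2 of 10 members whose macrophage groups did not overlap, both lower in Cre positive libraries. Of all genes tested 11.8% lay lower without overlap and 2.27% higher. With edgeR (quasi-likelihood, adjusted p under 0.05) 0 of 10 members were called, where 0% of all genes were called in either direction. Of the 17806 genes 965 had an unadjusted p under 0.05, and DESeq2 called 54. Leaving out 1 library changed the edgeR count to 34 for replicate 3 and 4 for replicate 1 of the Cre positive group, to 7 for replicate 1 of the Cre negative group, and to 1 for each of the other 3 libraries. Members were among the calls of some alternatives: Apoe passed in 3 of 13 (no filter, without Cre negative replicate 1 and without Cre positive replicate 3) and Lpl in 1 (without Cre positive replicate 3). Since the comparison chose the list, nothing is read from these counts for the members.

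The order of 6 members crossed the genotypes in the same way. Abca1, Lpl, Lrp1, Npc1, Lipa and Pltp had their 3 highest macrophage values in Cre negative replicates 2 and 3 and Cre positive replicate 3. The same 3 libraries were highest in Csf1r, the receptor that macrophages need to survive, at 856, 897 and 689 CPM against 152, 114 and 81.3 CPM in the other libraries, and in C1qa, at 264, 308 and 235 CPM against 39.8 to 45.8 CPM. They were the highest for 11 of 18 macrophage markers, for 6 of 9 erythroid markers tested and for 0 of 12 hepatoblast, 0 of 10 endothelial and 0 of 9 stellate markers. Of all 17806 genes tested 9.10% had that order. Siglec1, the gene of the sort marker CD169, did not have it. It measured 18.2, 115 and 117 CPM in Cre negative and 16.2, 102 and 67.7 CPM in Cre positive libraries. The pattern was noticed in the data, and no comparison was made between these libraries. Apoe, Abcg1, Fabp5 and Npc2 did not follow it, Apoe being higher in Cre negative replicate 1 than in Cre positive replicate 3.

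In HSC libraries the same genes showed no common order by label. Abca1 measured 27.5, 37.3 and 28.2 CPM in Cre negative and 38.1, 33.2 and 77.0 CPM in libraries labelled Cre positive, a log2 difference of 0.67 (SE 0.43). Abcg1 measured 111, 86.8 and 83.7 CPM and 75.0, 79.3 and 128 CPM, with equal means (0.00, SE 0.30). Pltp lay between 28.9 and 59.1 CPM in 5 libraries and at 0.0713 CPM, or 5 reads, in replicate 2 labelled Cre positive. A drop of that size in 1 deep library was not seen in any other member there. The range of Lpl was 105 to 253 CPM without Cre and 123 to 243 CPM with the Cre label, and that of Lrp1 11.7 to 48.5 and 16.9 to 34.8 CPM. Npc1 had the largest difference of the 10, at 17.1, 10.2 and 19.3 CPM in Cre negative and 17.3, 54.1 and 36.0 CPM in libraries labelled Cre positive (1.20, SE 0.56), and its groups overlapped through replicate 1. Npc2 measured 143 to 184 and 138 to 319.6 CPM, Lipa 143 to 217 and 113 to 151 CPM, and Fabp5 413 to 601 and 438 to 724 CPM.

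By fitted fold change 4 of the 10 genes were below and 6 above 0 in HSC libraries labelled Cre positive, and Pltp (-0.01) moved above 0 under each of 3 other scalings. No member (0 of 10) separated the groups, where 9.33% of 13962 genes tested lay lower and 6.37% higher without overlap. The number with the lower mean was 2 without replicate 2 labelled Cre positive and 7 without replicate 3 labelled Cre positive. With edgeR 0% of genes were called (892 at an unadjusted p under 0.05), and DESeq2 called 129. The endothelial markers in these libraries summed to 13409.8, 8278 and 5799 CPM in Cre negative and 6285, 5661 and 7512 CPM in libraries labelled Cre positive. The highest and the 3 lowest libraries stood in the same order by this sum as by Apoe. Cre negative replicate 2 and replicate 3 labelled Cre positive changed places between the orders. No other marker list was set against Apoe in HSCs, and nothing is read from this order. The share of other cells in the HSC values was not tested.

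**Figure D3:**
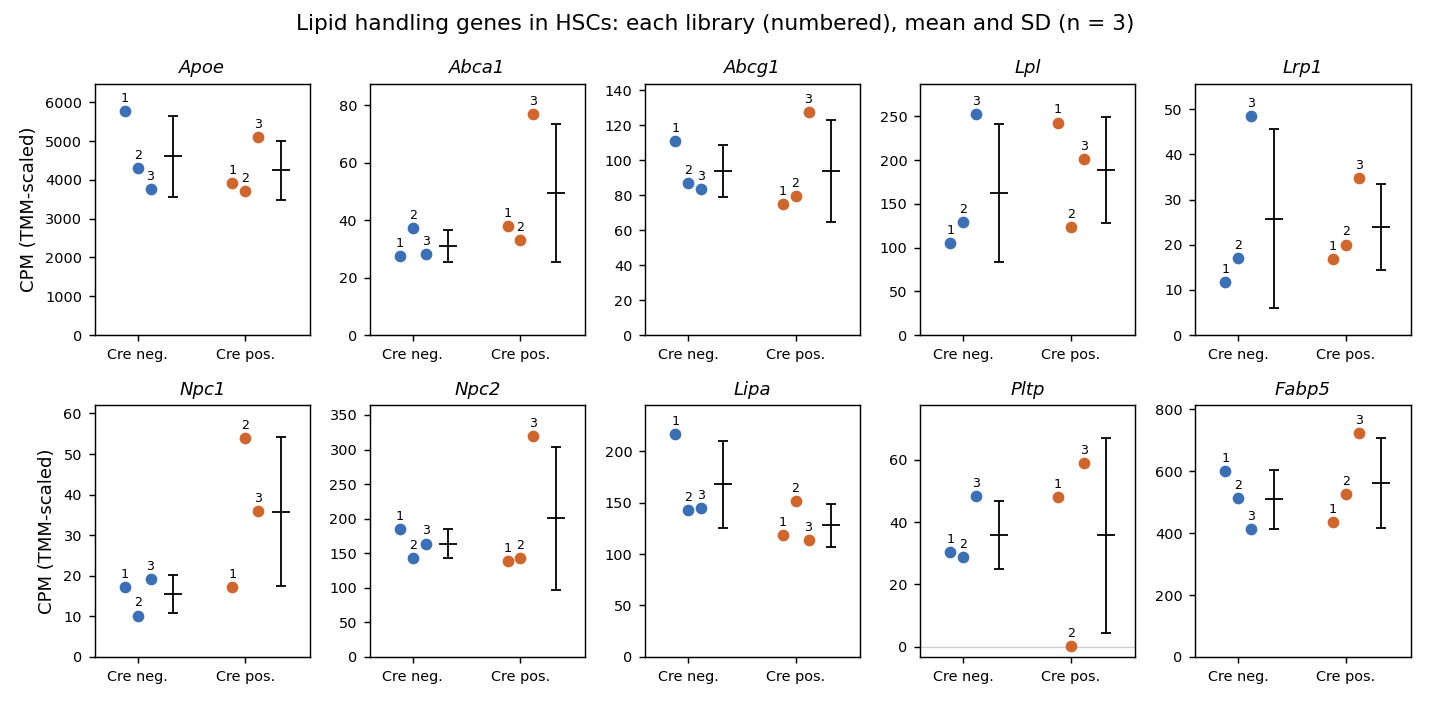
CPM of each of the 10 genes in the 6 HSC libraries, numbered by replicate (blue, Cre negative; orange, labelled Cre positive), with the mean and SD of 3 libraries in black. No gene separates the groups, and Pltp is near 0 in 1 library.

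Levels were compared between genes per kilobase of exon, with exon lengths of GENCODE M21, within each separately scaled table. These lengths join all annotated exons of a gene, as in the 5438 bases of Npc2, and can exceed the transcript expressed. The order of genes and the gaps between them depend on these lengths, and other lengths were not tested. In Cre negative macrophages Apoe stood first at 2173 ± 671 CPM per kb and Fabp5 second at 281 ± 37.0 CPM per kb (SD, n = 3 each). The ranges of these 2 genes did not overlap with each other or with the next. Abca1 (64.6 CPM per kb), Lrp1 (58.8), Lpl (35.3), Abcg1 (27.4), Lipa (23.9), Npc2 (15.5), Pltp (11.5) and Npc1 (4.87) followed, and each overlapped with the next in range. Apoe and Fabp5 also led in Cre negative HSCs, at 2157 ± 488 and 143 ± 26.4 CPM per kb. There the lysosomal genes Npc2 (30.1 CPM per kb) and Lipa (24.8) came next, then Lpl (15.5), Pltp (14.0) and Abcg1 (12.9), and a gap without overlap separated these from Abca1 (2.99), Lrp1 (1.45) and Npc1 (1.37).

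**Figure D4:**
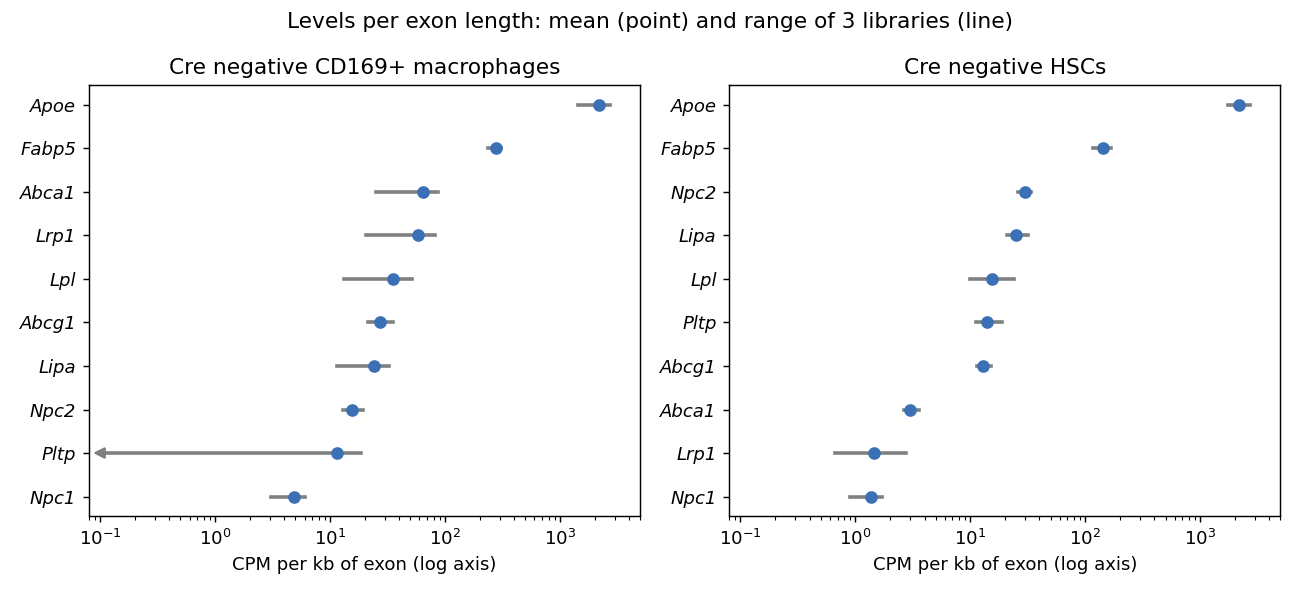
Mean level (point) and range over 3 libraries (line) of each gene per kilobase of exon, on a log axis, in Cre negative macrophages and Cre negative HSCs. An arrow marks a range that reaches 0. Apoe leads both panels near 2173 and 2157 CPM per kb, and Abca1 and Lrp1 follow Fabp5 in macrophages but lie near the bottom in HSCs.

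The difference between the sorts was not the one that chose the genes, but the same Cre negative libraries entered that choice. These tests are therefore not independent of it. The fit used the 6 Cre negative libraries over 32210 identifiers that both tables list. Abca1 (chromosome 4, 53030787 to 53159895, minus strand of GRCm38) and Lrp1 (chromosome 10, 127538161 to 127621148, minus strand) were far more abundant in macrophage than in HSC libraries. The log2 fold change was 5.53 for Lrp1 (SE 0.73, edgeR adjusted p = 0.00121) and 4.63 for Abca1 (SE 0.47, adjusted p = 0.000434). Npc1 (2.03, SE 0.44, adjusted p = 0.0102), Abcg1 (1.30, SE 0.26, adjusted p = 0.0078) and Fabp5 (1.19, SE 0.22, adjusted p = 0.00547) were also higher in edgeR. For these 5 genes every one of the 3 macrophage libraries lay above every one of the 3 HSC libraries, and the 5 calls held in all 13 alternatives. So 5 of 10 members were higher and 0 lower, where 35.5% of 16771 genes tested were called, 21.2% higher and 14.3% lower. The median log2 fold change was 1.24 for the members and 0.25 for all genes, and the latter was 0.41 with DESeq2. The count of 5953 genes called fell to 3388 without HSC replicate 1, 3575 without HSC replicate 2 and 3953 without macrophage replicate 2, and was 10336 without macrophage replicate 1. The split of the calls moved as well, from 3556 higher and 2397 lower to 7170 higher and 3166 lower without macrophage replicate 1, and to 2137 higher and 2231 lower with replicate number as a block.

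Apoe did not differ detectably between the sorts, with a log2 fold change of 0.22 (SE 0.27, edgeR adjusted p = 0.587) and macrophage libraries on both sides of the HSC range. Lipa (0.15, SE 0.37, adjusted p = 0.795) and Pltp (-0.11, SE 1.34, adjusted p = 0.961) did not pass either. Lpl had a higher mean in macrophages (1.38, SE 0.49, adjusted p = 0.0596 in edgeR) and passed in 7 of 13 alternatives, with adjusted p of 9.95e-05 to 0.192. Npc2 was the member nearest to a call in the other direction (-0.75, SE 0.26, adjusted p = 0.0521 in edgeR), with adjusted p of 0.0441 to 0.218 over the alternatives. Among markers, Siglec1 was higher in macrophages (5.13, SE 0.97, adjusted p = 0.00597 in edgeR), as was Csf1r (2.30, SE 0.55, adjusted p = 0.0149), while Hlf, an HSC transcription factor, was lower (-3.12, SE 0.85, adjusted p = 0.0217). Stab2, a sinusoidal endothelial receptor, was higher too (2.04, SE 0.42, adjusted p = 0.00819). Sort, library batch and counting pipeline go together in these tables and cannot be told apart, and both sorts held RNA of other cells. In Cre negative libraries the 10 endothelial markers summed to 7762 to 14037 CPM in the macrophage sort and 5799 to 13409.8 CPM in the HSC sort. The 18 macrophage markers summed to 2636 to 7009 CPM and 2208 to 2582 CPM in the same order. The part of other cells in the differences between the sorts was not tested. No exon of the 5 called genes is shared with another gene in the annotation except in Npc1, of whose exonic length 5.31% is shared.

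**Figure D5:**
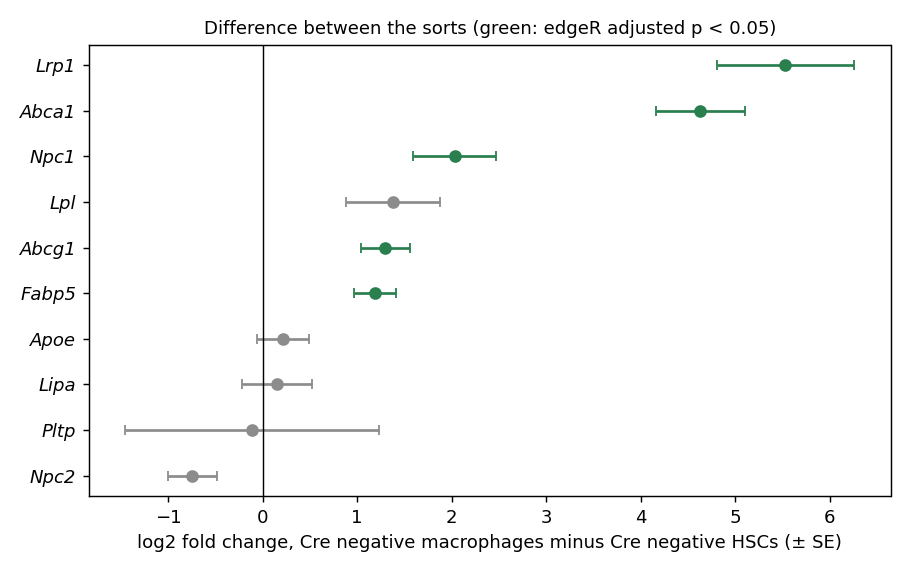
Log2 fold change of each gene between Cre negative macrophages and Cre negative HSCs (positive, higher in macrophages), with bars of 1 SE, from edgeR on 3 against 3 libraries. Lrp1 (5.53) and Abca1 (4.63) lie farthest from 0, Apoe (0.22) lies beside it, and green marks an adjusted p under 0.05.

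Apoe and Abca1 act in the same export step but differed in this respect, so the start regions of both are shown, 250 bases before to 50 after the start site, from RefSeq on GRCm38.p6. Apoe has 3 such windows, and the one at the annotated gene start is chr7:19699139-19699438, minus strand; that of Abca1 is chr4:53159846-53160145, minus strand. Capitals mark matches, on either strand, to the E-box CACGTG, the GC box GGGCGG, the TATA box TATAAA or the exact LXR direct repeat (AGGTCA, any 4 bases, AGGTCA).
Apoe: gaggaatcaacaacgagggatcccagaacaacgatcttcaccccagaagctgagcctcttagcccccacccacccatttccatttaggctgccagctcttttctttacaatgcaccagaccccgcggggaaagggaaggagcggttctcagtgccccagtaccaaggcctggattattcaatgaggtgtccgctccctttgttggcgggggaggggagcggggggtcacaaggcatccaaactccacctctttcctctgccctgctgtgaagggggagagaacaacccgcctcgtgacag
Abca1: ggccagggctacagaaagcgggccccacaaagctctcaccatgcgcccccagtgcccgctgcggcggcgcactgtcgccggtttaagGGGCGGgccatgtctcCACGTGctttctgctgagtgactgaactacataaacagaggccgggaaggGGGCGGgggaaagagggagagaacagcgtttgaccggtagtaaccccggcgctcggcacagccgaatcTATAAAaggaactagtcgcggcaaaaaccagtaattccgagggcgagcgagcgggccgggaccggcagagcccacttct
The Abca1 window held 1 E-box 147 bases before the start site, 2 GC boxes 163 and 97 bases before it and 1 TATA box 29 bases before it, none overlapping another. The Apoe window shown held 0 matches to the 4 motifs, as did another of its 3 windows, and the remaining one (chr7:19698572-19698871, minus strand) held 2 overlapping TATA box matches, on opposite strands, 100 and 96 bases before its start site. Of 32851 windows of the same length 7.15% held the E-box, 35.7% the GC box, 13.6% the TATA box and 0.0152% the exact LXR repeat. The repeat was matched without mismatches, so an inexact LXR site would stay unmarked in these windows. Sequence outside them was not searched, so the absence of a marked repeat does not show the absence of an LXR site. Windows were found for 6 of the 10 genes.

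The wider lipid pathway was described with 7 lists of 109 genes in all. In macrophages 95 were tested, 61 with the lower and 34 with the higher mean in Cre positive libraries (median log2 fold change -0.38 against -0.16 for all genes), and 0 passed in edgeR. In HSCs 95 were tested, 54 with the lower and 41 with the higher mean (median -0.10), and 0 passed. Between the sorts 16 of 103 were higher in macrophages (15.5%, against 21.2% of all genes) and 20 lower (19.4%, against 14.3%). The lower ones include Apoc2, which the 2 tables count over different annotations (see Other observations). Genes of the lists given with values in the next paragraphs were chosen for high abundance in macrophages. This choice favours a higher level in macrophages than in HSCs. Their differences between the sorts are therefore description, and the adjusted p printed with them is not evidence for the lists. List genes named in brackets without values are those called lower in macrophages than in HSCs.

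The liver apolipoproteins Apoa1 and Apob were highest in the library rich in hepatoblast markers. Apoa1, the main protein of high-density lipoprotein, measured 453 CPM in Cre negative macrophage replicate 1 and 10.4 to 81.1 CPM in the other 5 libraries. Apob, the core protein of liver lipoproteins, measured 284 CPM there and 0.360 to 27.6 CPM elsewhere. Apoc1, whose gene lies beside Apoe, measured 38.2, 49.9 and 20.1 CPM in Cre negative and 3.24, 2.97 and 52.6 CPM in Cre positive macrophages. Of 13 apolipoproteins 6 were tested in macrophages, 4 with the lower mean and 0 called. In HSCs 9 were tested, 7 with the higher mean and 0 called. Between the sorts 9 were tested, with 0 called higher in macrophages and 3 (Apoa2, Apoc2 and Apom) lower.

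Of the 15 regulators and targets of LXR, RXR and PPAR receptors, 10 had the lower mean in Cre positive macrophages and 0 were called. Rxra, the shared partner of these receptors, measured 146, 159 and 156 CPM in Cre negative and 118, 149.9 and 144 CPM in Cre positive macrophages, and was higher in macrophages than in HSCs (2.33, SE 0.30, edgeR adjusted p = 0.00097). Cd5l, a secreted macrophage protein and LXR target, measured 10.3, 797 and 351 CPM and 36.7, 10.8 and 78.3 CPM, a spread that crossed the genotypes. Scd2, a fatty acid desaturase, measured 82.8 to 299 CPM over the 6 libraries. In HSCs 12 of the 15 had the lower mean and 0 were called. Of the same 15, 4 were called higher in macrophages than in HSCs and 3 (Lpcat3, Nr1h2 and Rxrb) lower.

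Of 15 lipoprotein and scavenger receptors, 7 had the lower and 8 the higher mean in Cre positive macrophages, and 0 were called. Lrp5 and Lrp6, relatives of Lrp1 that act as Wnt co-receptors, were also higher in macrophages than in HSCs (4.82, SE 0.69 and 3.15, SE 0.31, edgeR adjusted p = 0.00173 and 0.0004). The fatty acid receptor Cd36 measured 1033, 555 and 395 CPM in Cre negative HSCs and 344, 379.5 and 254 CPM in the other HSC group, without overlap, and did not pass. In HSCs 13 of the 15 were tested, 8 with the lower mean. Of all 15, 4 were called higher in macrophages than in HSCs and 2 (Lrpap1 and Scarb1) lower.

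Of 19 lysosomal lipid genes 14 had the lower mean in Cre positive macrophages, with a median of -0.56 and 0 called. Psap, the precursor of sphingolipid activator proteins, measured 438, 809 and 818 CPM and 148, 223 and 489.8 CPM, and Hexa, a hexosaminidase subunit, 112, 217 and 268 CPM and 54.0, 70.3 and 136 CPM, both overlapping. Psap and Hexa had, like Lipa, their highest values in Cre negative replicates 2 and 3 and Cre positive replicate 3. Scarb2, a lysosomal membrane protein that binds cholesterol, was higher in macrophages than in HSCs (2.26, SE 0.43, edgeR adjusted p = 0.00605). In HSCs 11 of 19 had the lower mean, with 0 called. Of all 19, 3 were called higher in macrophages than in HSCs and 2 (Mcoln1 and Glb1) lower.

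Of 12 tested genes of lipid storage 9 had the lower mean in Cre positive macrophages, with a median of -0.85 and 0 called. Plin2, which coats lipid droplets, measured 65.9, 152 and 143 CPM and 30.9, 35.0 and 130.2 CPM, and Soat1, which esterifies cholesterol for storage, 95.7, 234 and 171 CPM and 140.3, 156 and 178 CPM. Fatty acid genes split 10 to 8 of 18 tested, and Fabp4, a relative of Fabp5, measured 445, 277 and 244 CPM in Cre negative and 385, 319 and 442 CPM in Cre positive macrophages. Of the 10 tested partners of Lpl 7 had the lower mean, and Sel1l, which helps Lpl leave the endoplasmic reticulum, measured 223, 199 and 232 CPM against 128, 109 and 165 CPM, without overlap. None of these genes passed in macrophages. Between the sorts Lmf2, a relative of the lipase maturation factor Lmf1, was lower in macrophages (-1.37, SE 0.40, edgeR adjusted p = 0.027), while Soat1 (1.61, SE 0.49, adjusted p = 0.0322) and Hadha, a subunit of the mitochondrial trifunctional protein (0.76, SE 0.24, adjusted p = 0.0375), were higher. Of 16 storage genes tested between the sorts, 2 were called higher in macrophages and 4 lower. For 20 fatty acid genes these counts were 3 and 5, and for 10 partners of Lpl 0 and 2 (Apoc2 and Lmf2). The 2 tables count Apoc2 over different annotations, as described under Other observations.

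The genes whose pattern was most like that of Apoe were taken by Pearson correlation of log2(CPM + 1) over the 6 libraries of a sort, among 6962 genes in macrophages and 7869 in HSCs that averaged 20 CPM or more. In macrophages these were Rpl36, a ribosomal protein gene (r = 0.990), Inpp4a (0.978), Grk2 (0.976), Eif3c (0.976) and Mea1 (0.974). Rpl36 measured 138, 227 and 225 CPM in Cre negative and 97.2, 80.5 and 108 CPM in Cre positive libraries. In HSCs they were Sap30l (0.992), Manf (0.991), Kdelr2 (0.989), the endothelial junction gene Cldn5 (0.987) and Ube2n (0.986), and Cldn5 measured 629, 402 and 312 CPM in Cre negative and 294, 284 and 527 CPM in libraries labelled Cre positive. With 6 points sharing library and depth, such values describe likeness alone. The 2 sets of 5 genes had no gene in common. Sets of 5 from 6962 and 7869 genes would seldom share one, so nothing is read from this.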

How the data were processed

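RNA from 12 libraries was prepared in 1 batch per sort, per the labels' protocols, with SMART-Seq v4, a kit that leaves strand unmarked. Whole-number counts per gene were deposited, with no normalization by the authors. HSC counts were made with STAR 2.7.6a and featureCounts of Subread 2.0.1 on GRCm38, per the submitters' processing notes. For macrophages the notes name mm10, and no aligner or counter is given in the sources used here. Gene names, coordinates and exon lengths came from GENCODE M21 (GRCm38). The authors' annotation release is not given, so lengths are approximate. Of the identifiers, 50 in the HSC and 4855 in the macrophage table had no name there. Columns without a sample numbered 0.

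Each table was filtered (filterByExpr), TMM-scaled and fitted with edgeR 4.0.16 (robust glmQLFit, glmQLFTest) in R 4.3.3, with a Benjamini-Hochberg adjusted p under 0.05 as threshold. DESeq2 1.42.0 was an alternative. SEs came from the log2 fold change and F. Fits were tested on simulated data. Libraries of a group differed far beyond sampling noise (chi-square per degree of freedom 51.2 to 831). Same-numbered libraries did not deviate together (r = -0.03 to 0.07), so replicate numbers were not used to pair them. Members and lists were chosen with earlier results of these data known. Genes named with their values are the 10 members, Jag1, fixed markers and the 5 genes most like Apoe per sort. So are the 3 most abundant macrophage genes of each list, and Apoc2, Apoc4 and Gm44805, singled out later. Some list genes are named without values, as called lower in macrophages than in HSCs. Alternatives were 2 other scalings, no filter, thinning, leaving out mitochondrial and unnamed genes, the replicate block and leaving out each library.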

Additional observations from a re-analysis of the deposited data

How the results depend on the processing

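Each comparison was refitted under 13 alternatives. In macrophages 8 of 10 members kept the direction of their Cre difference in all of them (Npc1 and Npc2 did not), in HSCs 3 of 10 (Abca1, Npc1 and Lipa), and between the sorts 8 of 10 (Lipa and Pltp did not). The Apoe difference in macrophages ranged from -1.35 to -0.90 on the log2 scale, and from -1.35 to -0.95 when 1 library was left out. The count of macrophage genes called was 0, and 54 with DESeq2, 21 with no filter, 13 with the replicate block and 1 to 34 without 1 library. In HSCs it was 0, and 129 with DESeq2. The replicate block, for numbers that do not pair the libraries, gave an Apoe value of -1.10 in macrophages. The number of members with a lower mean in HSCs was 4, and 2 to 7 without 1 library. Between the sorts 5953 genes were called, and 3388 to 10336 without 1 library. Among the members 0 were lower in macrophages, and 1 (Npc2) on library totals, 0 to 1 without 1 library. The cause of these shifts was not tested. Shallow Cre positive macrophage libraries limit low genes: there 3 reads are up to 1.08 CPM. In Cre positive replicate 2 they are 0.558 CPM, above its Pltp level of 0.186 CPM.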

Other observations

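Apoc2, a cofactor of Lpl whose gene lies near Apoe, had 0 reads in all 6 macrophage libraries and 17.0 to 39.8 CPM in the 6 HSC libraries. Of its exonic length 79.5% is shared with the predicted gene Gm44805, which is listed in the macrophage table (0 CPM in all 6 libraries) and not in the HSC table. The call of Apoc2 as lower in macrophages (edgeR adjusted p = 0.00133) therefore sits where the 2 tables count over different annotations. Apoc4, between Apoc1 and Apoc2, measured 0 to 8.92 CPM in macrophage and 1.59 to 11.7 CPM in HSC libraries. Apoc2, Apoc4 and Gm44805 were singled out after their values were seen. For the 10 members, the genes that share exon bases with Npc1 (Gm15956 and Rmc1) and Pltp (Ctsa) are listed in both tables.

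Plin3 and Acsl5, a lipid droplet protein and an enzyme that activates fatty acids, separated the HSC groups without a call in edgeR. Of the 95 pathway genes tested in HSCs, 10 lay lower without overlap (10.5%, against 9.33% of all genes) and 1 higher (1.05%, against 6.37%). Plin3 measured 198, 226 and 205 CPM in Cre negative HSCs and 156, 127 and 167 CPM in the other group, and Acsl5 196, 169.9 and 221 CPM and 102, 134 and 137 CPM. Plin2 did so as well, at 271, 230.0 and 253 CPM and 215, 195 and 188 CPM. In macrophages the groups of all 3 genes overlapped. Of the 95 pathway genes tested there, 12 lay lower without overlap, among them Sel1l (12.6%, against 11.8% of all genes). The share that lay higher was 2.11%, against 2.27% of all genes.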
